A study of Mus musculus with 20 samples.

Results

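The right atrial appendages of Pitx2c heterozygous mice were compared with those of wild-type littermates, gene by gene, on Illumina bead arrays. The comparison was defined by the sample titles. It took the 5 arrays of heterozygous and the 5 arrays of wild-type right atria, 10 of the 20 arrays of the series. The other 10 arrays hold left atrial appendages of the same genotypes, and they entered the fit as groups of their own. The mice belonged to the outbred CD1 strain and were 12 weeks of age. The heterozygous mice carried 1 altered copy of Pitx2c and the wild-type mice none. How the allele was made is not given in the sources used here, nor is the sex of the mice. RA and LA stand for right and left atrial appendage below.

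The left and right atria of the mammalian heart take on different identities during development, under a left-right patterning programme that acts on the left side. The sinoatrial node, the pacemaker of the heart, forms on the right, and its transcription factors hold working-muscle genes down within it. Right atrial muscle is further marked by growth factor genes such as Bmp10. This comparison asks which transcripts differ in the right atrium of adult mice with the heterozygous genotype.

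The RA arrays carried the transcripts of right atrial muscle. Bmp10, a growth factor gene of right atrial muscle, had deposited signals from 271 to 2179 on the heterozygous and from 714 to 3068 on the wild-type RA arrays. On the LA arrays the same probe was detected on 1 of 10, at a signal of 145. Nppa (atrial natriuretic peptide), Sln (sarcolipin), Myl7 and Myl4 (atrial myosin light chains) were detected on all RA arrays and stood near the top of the scale, 38625.9, where differences can be compressed. An array detected between 17316 and 19422 probes, with a mean of 18172 ± 611 (SD, n = 5) on heterozygous and 18542 ± 732 (SD, n = 5) on wild-type RA arrays. That difference gave p = 0.397 in an exact two-sided permutation test. Arrays of the RA correlated pairwise between 0.954 and 0.989, and heterozygous replicate 1 had the lowest number of detected probes.

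Of 20097 tested probes, 2 were called between the genotypes of the right atrium (limma, Benjamini-Hochberg adjusted p under 0.05), which is 0.00995% of those tested. Both were higher in heterozygous mice, and 0 were lower. Neither probe has a gene name in the annotation used here, so both are given by probe ID. Of the 11154 named genes tested, 0 were called. The smallest adjusted p of a named gene was 0.818 in limma. At an unadjusted p under 0.05 there were 1087 probes, 718 higher and 369 lower, where 1004.85 would be passed by chance if no probe differed. That number was 668 without heterozygous replicate 1, 2346 without heterozygous replicate 5 and 2212 without wild-type replicate 1.

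The probe ILMN_3118071 had signals of 835, 439.0, 439.0, 464 and 435 on the 5 heterozygous RA arrays. The 5 wild-type RA arrays had 25.3, 37.2, 17.9, 18.2 and 22.9, and the probe was detected on 4 of them. Every heterozygous array lay far above every wild-type array, and heterozygous replicate 1 stood above the other 4. On the log2 scale the mean was 9.02 ± 0.40 (SD, n = 5) in heterozygous and 5.31 ± 0.26 (SD, n = 5) in wild-type RA. The difference was 3.71 (SE 0.17, 95% interval 3.36 to 4.05), or 13.1-fold, with an adjusted p of 3.3e-11 in limma.

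The probe ILMN_1220244 had signals of 141, 74.7, 106, 105 and 71.3 on the heterozygous RA arrays. The wild-type RA arrays had 5.2, -2.3, 5.9, -5.4 and -0.2, and none of the 5 detected it. It was therefore at least 3.42-fold higher in heterozygous RA, a bound set against the lowest detected signal. The fitted log2 difference of 2.27 (SE 0.15) depends on the offset added before the logarithm and is no exact size, with an adjusted p of 3.1e-08 in limma.

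Both probes were brighter still in the left atrium, in both genotypes. On the LA arrays ILMN_3118071 ranged from 1155 to 1467 in heterozygous and from 1135 to 1610 in wild-type mice. ILMN_1220244 ranged there from 215 to 349 in heterozygous and from 222 to 311 in wild-type mice. The genotype difference in the LA was -0.10 (SE 0.17) and -0.03 (SE 0.15) on the log2 scale, neither past the threshold that 1 probe (0.00498%) passed in that atrium. The RA difference exceeded the LA difference by a fitted 3.805 for ILMN_3118071 (adjusted p = 1.38e-08, limma) and 2.30 for ILMN_1220244 (adjusted p = 1.11e-05, limma). Both sizes depend on the offset. These probes were the only 2 of 20097 called in that test of RA against LA (0.00995%). They were also the only 2 in which every wild-type RA array lay below every heterozygous RA array and these in turn below every LA array. The lower part of that order is the genotype difference by which both were called. By comparison, 112 of the 20097 tested probes were lower on all RA arrays than on all LA arrays. For 0 probes did heterozygous RA lie below wild-type RA and wild-type RA below all LA arrays.

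**Figure D1:**
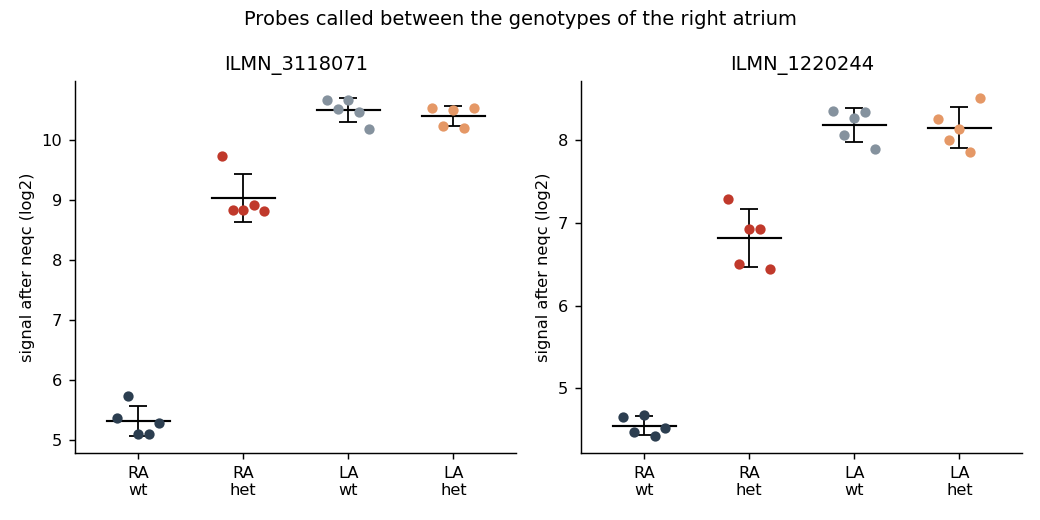
Signal after background correction and quantile normalization (log2, vertical axis) of the 2 called probes on each array, by atrium and genotype (5 arrays a group, horizontal line and bar are mean and SD). Wild-type RA arrays lie lowest, heterozygous RA arrays in between, and LA arrays of both genotypes highest.

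**Figure D2:**
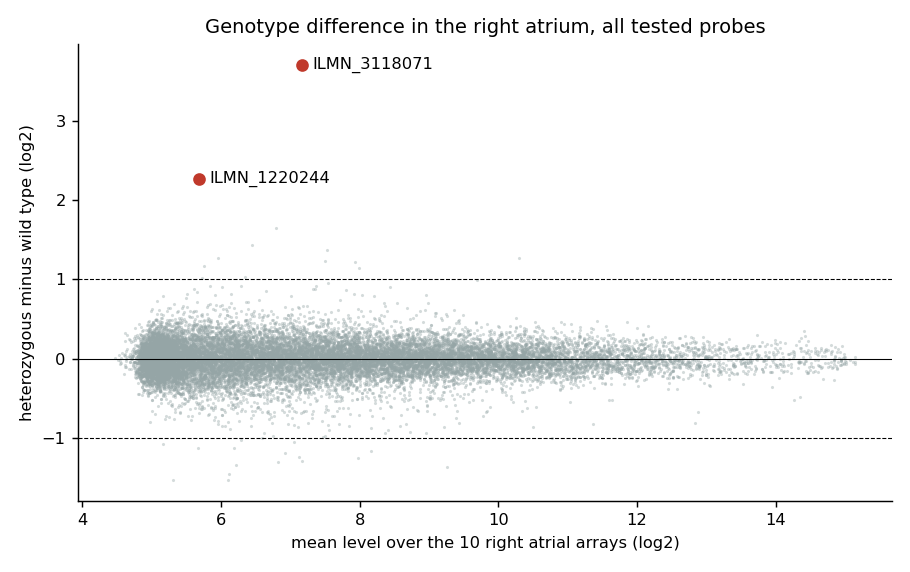
Difference between heterozygous and wild-type RA (log2, vertical axis) against the mean level over the 10 RA arrays (log2, horizontal axis) for 20097 tested probes. Dashed lines mark a 2-fold difference, and the 2 called probes are drawn in red, far above all others.

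For most other transcripts the intervals limited the size that a difference could have, though less so for dim probes, whose differences the offset understates. The 95% interval of the log2 difference lay within 2-fold in either direction for 19203 probes (95.6%) and within 1.5-fold for 14910 (74.2%). Among the named genes, each by its brightest probe, these were 96.2% and 78.4%. Intervals were narrowest in bright genes: at a mean log2 level over 10 they lay within 2-fold for 99.2% and within 1.5-fold for 91.6%, and at levels from 8 to 10 for 97.0% and 84.4%. Dimmer genes did not follow that order, with 93.9% and 70.3% at levels from 6 to 8 and 95.7% and 70.9% up to 6. Near background the offset compresses values, so the shares up to 6 do not show that large changes were absent there. The median difference over the named genes was 0.01, with 5941 above 0 and 5213 below, and the 1st and 99th percentiles were -0.49 and 0.50. Groups did not overlap for 64 probes that were higher (0.318% of those tested) and 36 that were lower (0.179%), 100 in all (0.498%). A missed threshold does not show that a gene was equal in both genotypes. The interval gives what remains possible where the signal lies well above background.

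By their brightest probes, genes that define atrial muscle had narrow intervals, but the first 4 named here stood near the top of the scale. Differences can be compressed there, and Nppa reached the highest value, 38625.9, on arrays of both genotypes. Their intervals may therefore be too narrow. Nppa differed by -0.06 on the log2 scale (95% interval -0.22 to 0.09), Sln by 0.02 (-0.15 to 0.20), Myl7 by -0.09 (-0.25 to 0.08) and Myl4 by -0.05 (-0.20 to 0.11). Under the 25 alternatives of the closing section another Myl4 probe ran from -0.71 to -0.26 and another Sln probe from 0.04 to 0.19. Myh6, a myosin heavy chain gene, differed by -0.13 by its brightest probe, and another of its probes ran from -1.74 to -0.52. None of these passed the threshold. Of the 23 tested genes of the atrial sarcomere and its hormones 0 were called, 18 lay below 0 and 5 above, and the median was -0.08 beside 0.01 over all named genes. Nppb, the gene of the B-type natriuretic peptide, differed by -0.18 (-0.69 to 0.33).

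The genes of the left-right and node programmes did not pass the test in either direction. Shox2, a node transcription factor, had RA signals of 327, 170, 141, 45.0 and 117 in heterozygous and 64.6, 129, 119, 248 and 156 in wild-type mice. Those groups overlapped widely, with a difference of 0.04 (95% interval -0.77 to 0.84). Tbx3, which represses working-muscle genes in the node, differed by -0.18 (-0.68 to 0.32), and Nkx2-5, which acts against the node programme, by 0.16 (-0.08 to 0.40).

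Tbx5, a T-box factor of the atria, had signals of 15.0, 100.3, 90.6, 17.3 and 112 on heterozygous RA arrays. The wild-type arrays ranged from 23.1 to 165 around a median of 118, so that low and high values occurred in both groups. The difference was -0.60 (95% interval -1.44 to 0.25). Hcn4, the pacemaker channel gene, was detected on none of the 10 RA arrays and had signals from -10.3 to -6.0 in heterozygous and from -7.6 to 0.2 in wild-type RA. The exact permutation test gave p = 0.0238, and 0.429 after adjustment over the probes tested this way because the filter left them out. Of 10 tested genes of left-right patterning, 24 cardiac transcription factors and 11 genes of the sinoatrial node 0 were called, with medians of -0.08, -0.07 and 0.05. Lefty1, a Nodal antagonist, differed by 0.43 (0.02 to 0.83, adjusted p = 0.83 in limma).

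Bmp10 had the lowest difference among the left-right genes. Its signals were 271, 1873, 1662, 677 and 2179 in heterozygous RA and 714, 2042, 2780, 2146 and 3068 in wild-type RA. Each group held at least 1 low array, and the groups overlapped. The log2 difference of -0.87 had a 95% interval from -2.04 to 0.30 and an adjusted p of 0.83 in limma. Among 35 tested genes of the BMP, Wnt and TGF-beta pathways, its receptors included, 26 lay below 0 and 9 above, with a median of -0.08 and 0 called.

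Ion channel and calcium genes were measured with intervals mostly within 2-fold. That held for 20 of 22 potassium channel genes, 6 of 6 sodium channel genes and 30 of 31 calcium handling genes, and 0 of them were called. Kcnj3, a subunit of the acetylcholine-gated potassium channel, had signals from 594 to 981 in heterozygous and from 729 to 2033 in wild-type RA, a difference of -0.38 (SE 0.295). Kcnj5, its partner subunit, differed by 0.03 (-0.30 to 0.37) and the calcium release channel Ryr2 by -0.11 (-0.36 to 0.14). Each value is that of the gene's brightest probe, and other probes gave other sizes. Under the 25 alternatives of the closing section another Kcnj5 probe ran from -0.46 to -0.13 and another Kcnj3 probe from -0.115 to 0.218. Further Ryr2 probes ran from -0.60 to -0.18 and from -0.74 to -0.29. None of these passed the threshold. Camk2b, the beta chain of calcium/calmodulin kinase II, was the member of these lists whose groups did not overlap, beside 0.498% of all tested probes. It had 144, 118, 104, 127 and 99.7 in heterozygous and 80.4, 98.3, 88.5, 88.6 and 90.1 in wild-type RA, a difference of 0.35 (0.10 to 0.59, adjusted p = 0.83 in limma).

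Among the genes of cell contacts, differences varied with the probe. Gja1, connexin 43 of atrial gap junctions, differed by -0.11 (-0.39 to 0.18). Gja5, connexin 40, differed by -0.32 (-0.74 to 0.11) by its brightest probe and by -0.09 to -0.28 by its other 3 tested probes. Dsg2, the desmoglein of cardiac desmosomes, had signals by its brightest probe of 1759, 2390.0, 2653, 2653 and 2354 in heterozygous RA. In wild-type RA it had 3379, 2682, 2721, 2851 and 3578. Every heterozygous array lay below every wild-type array, with a difference of -0.37 (-0.65 to -0.08). Among its other 3 tested probes, chosen for mention after their values were seen, ILMN_1242566 differed by -1.17 (-1.71 to -0.62), ILMN_2955047 by -1.29 (-1.94 to -0.64) and ILMN_1215475 by -0.31 (-0.71 to 0.08). The first pair had groups that did not overlap: 94.7 to 314 against 364 to 445, and 22.6 to 156 against 169 to 254. None of the 4 passed the adjustment (adjusted p = 0.83 in limma). In the LA the corresponding differences of that pair were -1.02 and -1.14.

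The probes of Cdh2, encoding N-cadherin of the intercalated disc, gave differences of unlike size but the same sign. The brighter of its probes gave 56.2, 28.4, 30.3, 38.1 and 61.4 in heterozygous and 0.4, 36.7, 31.4, 19.1 and 14.5 in wild-type RA. The groups overlapped, with a difference of 0.66 (0.14 to 1.17), while its other probe differed by 0.14 (-0.26 to 0.53). Of 15 tested genes of gap junctions and desmosomes 0 were called, with a median of -0.10, and of 16 tight junction genes 0 were called, with a median of -0.04.

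**Figure D3:**
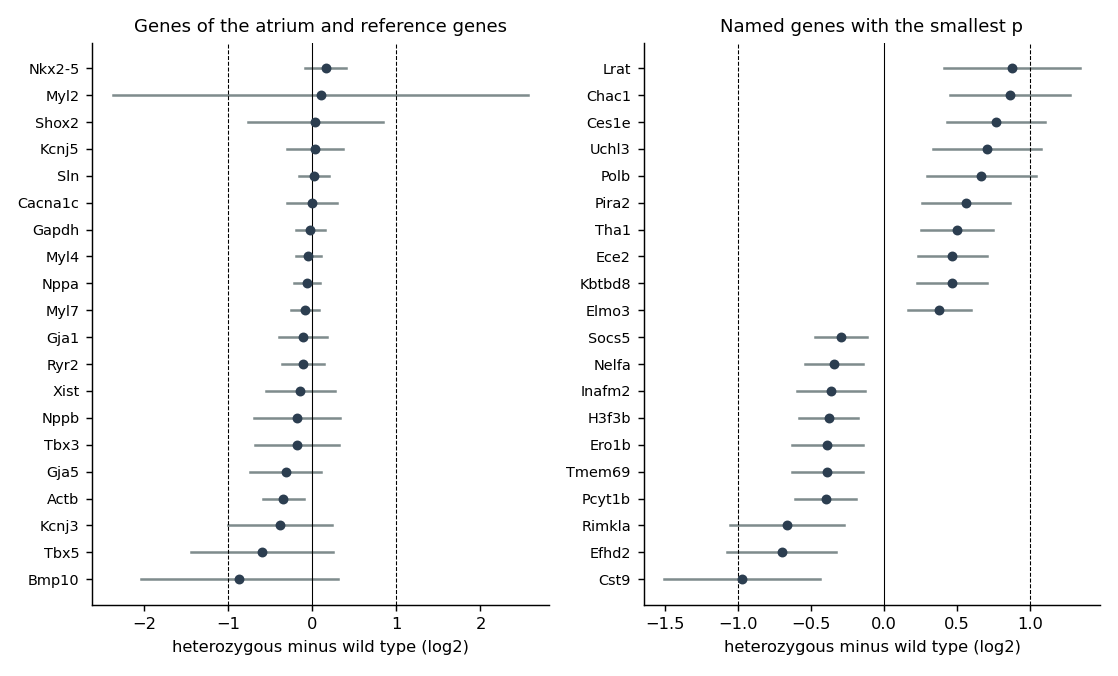
Difference between heterozygous and wild-type RA (log2, horizontal axis) with its 95% interval for genes of the atrium and reference genes (left) and for the named genes with the smallest p in each direction (right). Each gene is drawn by its brightest probe. Dashed lines mark a 2-fold difference. Intervals of Nppa, Sln, Myl7, Myl4 and Gapdh are narrow around 0, and that of Myl2 runs from -2.37 to 2.57. Nppa, Sln, Myl7 and Myl4 stand near the top of the scale, where differences can be compressed.

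None of the 10 named genes with the smallest p among positive differences, ranked by their brightest probes, passed the adjustment. Ces1e, a carboxylesterase gene, had signals of 42.4, 34.0, 47.5, 39.6 and 54.6 in heterozygous RA. In wild-type RA it had 26.3, 7.7, 23.6, 11.6 and 22.6. The groups did not overlap, and the difference was 0.77 (0.43 to 1.11), 1.71-fold.

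Chac1, encoding an enzyme that degrades glutathione, had 432, 248, 223, 276 and 278 in heterozygous RA. In wild-type RA it had 198, 183, 124, 133 and 122. Again each heterozygous array lay above each wild-type array, with a difference of 0.86 (0.45 to 1.28). Uchl3, a deubiquitinating enzyme gene, ranged from 465 to 886 against 294 to 475, a difference of 0.71, and Polb, the DNA polymerase of base excision repair, from 123 to 297 against 86.2 to 121, a difference of 0.67. Lrat, whose product esterifies retinol for storage, had 59.8, 26.1, 57.9, 52.1 and 65.3 in heterozygous and 32.4, 5.6, 28.4, 16.7 and 18.2 in wild-type RA. Heterozygous replicate 2 fell within the wild-type range, and the difference was 0.88 (0.41 to 1.34). The other 5 genes were Tha1, Ece2, Kbtbd8, Pira2 and Elmo3, with differences from 0.38 to 0.56. Adjusted p-values of these 10 genes were 0.818 for Ces1e and 0.83 for the others (limma).

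The 10 named genes with the smallest p among negative differences, ranked by their brightest probes, did not pass the adjustment either. Other probes of a gene, such as those of Dsg2 given above, did not enter this ranking. H3f3b, which encodes the replication-independent histone H3.3, had 4238, 5056, 5154, 4975 and 4930.1 in heterozygous RA. In wild-type RA it had 6797, 5603, 6687, 5745 and 6939. The groups did not overlap, and the difference was -0.38 (-0.58 to -0.18).

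Socs5, a gene of the suppressor of cytokine signalling family, ranged from 505 to 615 against 650.3 to 761, a difference of -0.29 (-0.47 to -0.12). Cst9, a cystatin gene, ranged from 24.7 to 102 in heterozygous and from 86.5 to 185 in wild-type RA, a difference of -0.97 (-1.51 to -0.44). Efhd2, encoding a calcium-binding protein, was detected on none of the heterozygous and 4 of the wild-type RA arrays, at signals up to 14.2 against up to 31.6. The other 6 genes were Pcyt1b, Nelfa, Rimkla, Ero1b, Tmem69 and Inafm2, with differences from -0.67 to -0.34, and the adjusted p was 0.83 for all 10 (limma).

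Clock genes had the second highest median of the lists. The circadian clock is a feedback loop in which Arntl and Clock drive Per, Cry, Nr1d and Dbp genes, so that levels depend on the hour of sampling. The hour is not given in the sources used here, and its part in the values was not tested. Of 12 tested clock genes 0 were called, 9 lay above 0 and 3 below, and the median difference was 0.36 in the RA and 0.25 in the LA. An unadjusted p under 0.05 occurred for 6 of the 12, beside 5.41% of all probes.

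Dbp, an output gene of the clock, had signals of 881, 1687, 910, 815 and 1789 in heterozygous RA. Wild-type RA had 870, 419, 463, 595 and 587. Replicate 1 of the wild type overlapped the heterozygous group, and the difference was 0.99 (95% interval 0.32 to 1.67, adjusted p = 0.83 in limma). Per1, which represses the loop, had 353, 649, 535, 523 and 467 against 348, 560.1, 257, 366 and 163. The groups overlapped, with a difference of 0.63 (-0.01 to 1.28).

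Nr1d1 and Arntl were picked out for mention after their values were seen. Nr1d1, a repressor of Arntl, ranged from 98.5 to 134 in heterozygous and from 58.2 to 119 in wild-type RA, a difference of 0.45 (0.07 to 0.82). Arntl, an activator of the loop, ranged from 528 to 624 against 623 to 914, a difference of -0.32 (-0.61 to -0.04). The LA differences of Dbp, Per1, Nr1d1 and Arntl were 0.93, 0.55, 0.33 and -0.35, and none of these passed the threshold.

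Skeletal muscle genes had the highest median, 0.39, with 11 of 13 tested above 0, 2 below and 0 called. The median difference of the list in the LA was 0.005. Atp2a1, the calcium pump of fast skeletal muscle, had signals of 83.5, 241, 135, 1967 and 197 in heterozygous RA. Wild-type RA had 87.1, 77.7, 127, 126 and 103. Heterozygous replicate 4 stood far above all others, and the difference of 1.23 had an interval from 0.05 to 2.41.

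Pvalb, a calcium buffer of fast fibres, had 458, 316, 217, 714 and 70.2 against 58.1, 146, 171, 99.6 and 61.7. The difference was 1.37 (0.41 to 2.33), and heterozygous replicate 5 lay within the wild-type range. Tnni2, the fast skeletal troponin I, had 349.5, 501, 150.0, 1339 and 154 against 169, 152, 164, 161 and 89.4, a difference of 1.22 (0.28 to 2.17). The summed signal of the 13 genes ranged from 41413 to 46841 in heterozygous and from 40434 to 48094 in wild-type RA, most of it from Myl1, at 25476 or more on every RA array. Without heterozygous replicate 4 the list's median was 0.20 and the differences of Atp2a1 and Tnni2 were 0.52 and 0.76. On the LA arrays Atp2a1 ranged from 295 to 1073 in heterozygous and from 153 to 568 in wild-type mice. Tnni2 ranged there from 320 to 1349 and from 534 to 1051. Pvalb was dimmer there, from 33.6 to 163 and from 17.7 to 55.8. The part of skeletal muscle RNA in these differences was not tested.

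Several markers of other tissues varied widely between arrays of both genotypes. Myl2, the ventricular myosin light chain, had 11228, 402, 3188, 33897 and 544 in heterozygous RA. Wild-type RA had 698, 29383, 924, 5897 and 1712. The difference was 0.10 with an interval from -2.37 to 2.57. The summed signal of 6 ventricular genes ranged from 3427 to 68145 and from 6497 to 61611.

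Adipoq, a fat cell gene, ranged from 181 to 4794 in heterozygous and from 97.8 to 3891 in wild-type RA, with summed signals of 13 adipocyte genes from 25010 to 43654 and from 24681 to 33232. Ucp1, of brown fat, had a signal of 447 on heterozygous replicate 1 and at most 6.3 on the other 9 RA arrays. Scgb1a1, of airway cells, had 741 and 150.3 on wild-type replicates 3 and 4 and at most 7.0 on the other RA arrays. No marker gene of the 19 cell type lists was called, and in bulk tissue fewer cells of a type cannot be told apart from less RNA per cell.

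**Figure D4:**
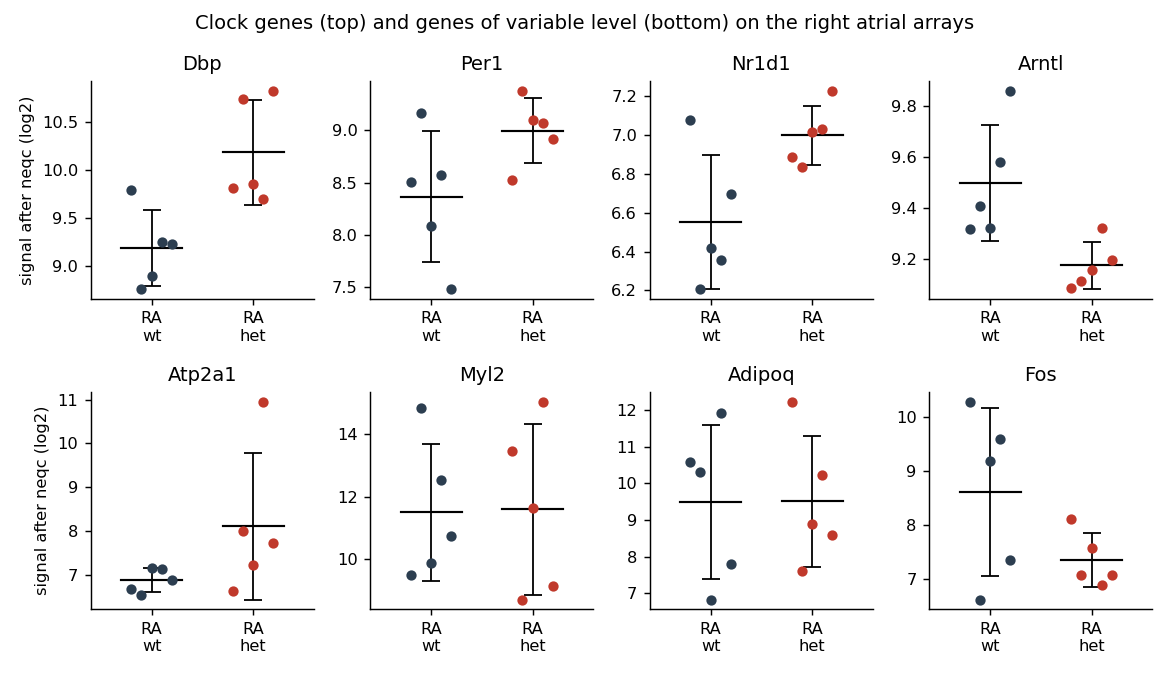
Signal (log2, vertical axis) on each RA array of 4 clock genes (top) and of Atp2a1, Myl2, Adipoq and Fos (bottom), by genotype (5 arrays a group, horizontal line and bar are mean and SD). Dbp, Per1 and Nr1d1 have higher and Arntl a lower mean in heterozygous RA, with none past the threshold, and Myl2 and Adipoq span the widest ranges, in both genotypes.

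Immediate early genes, which respond within minutes to stimuli that include dissection, had a median of -0.11 over 21 tested genes, with 12 below 0, 9 above and 0 called. Leaving out 1 RA array gave medians from -0.24, without heterozygous replicate 3, to -0.04, without heterozygous replicate 4. Fos had 262, 120.2, 174, 103 and 119 in heterozygous RA. Wild-type RA had 1225, 83.1, 567, 755 and 148. The wild-type arrays spanned both high and low values, and the difference of -1.26 had an interval from -2.98 to 0.46. Egr1 ranged from 1506 to 2580 against 1892 to 5539, a difference of -0.82 (-1.59 to -0.06, adjusted p = 0.83 in limma).

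Matrix genes lay more often below 0 than above, 23 against 8 of 31 tested, with a median of -0.08 and 0 called. Lox, which crosslinks collagen and elastin, had 46.2, 44.8, 52.6, 43.4 and 44.3 in heterozygous RA. Wild-type RA had 85.4, 153, 55.1, 82.0 and 59.4. The groups did not overlap, with a difference of -0.66 (-1.15 to -0.17, adjusted p = 0.83 in limma). Mmp3, a matrix protease, differed by -0.82 (-1.63 to -0.01). The 15 fibroblast genes had a median of -0.05.

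Genes of energy metabolism and protein synthesis had medians near 0. The 43 tested genes of oxidative phosphorylation all had intervals within 2-fold and 42 of them within 1.5-fold, with a median of 0.03. The 25 genes of fatty acid uptake and oxidation had a median of 0.02, with 19 intervals within 1.5-fold, and the 27 cytosolic ribosomal protein genes one of 0.07, with 26. Interferon response, cell cycle, and heat shock and unfolded protein genes had medians of 0.04, 0.02 and -0.04, with 0 called of 17, 17 and 23.

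**Figure D5:**
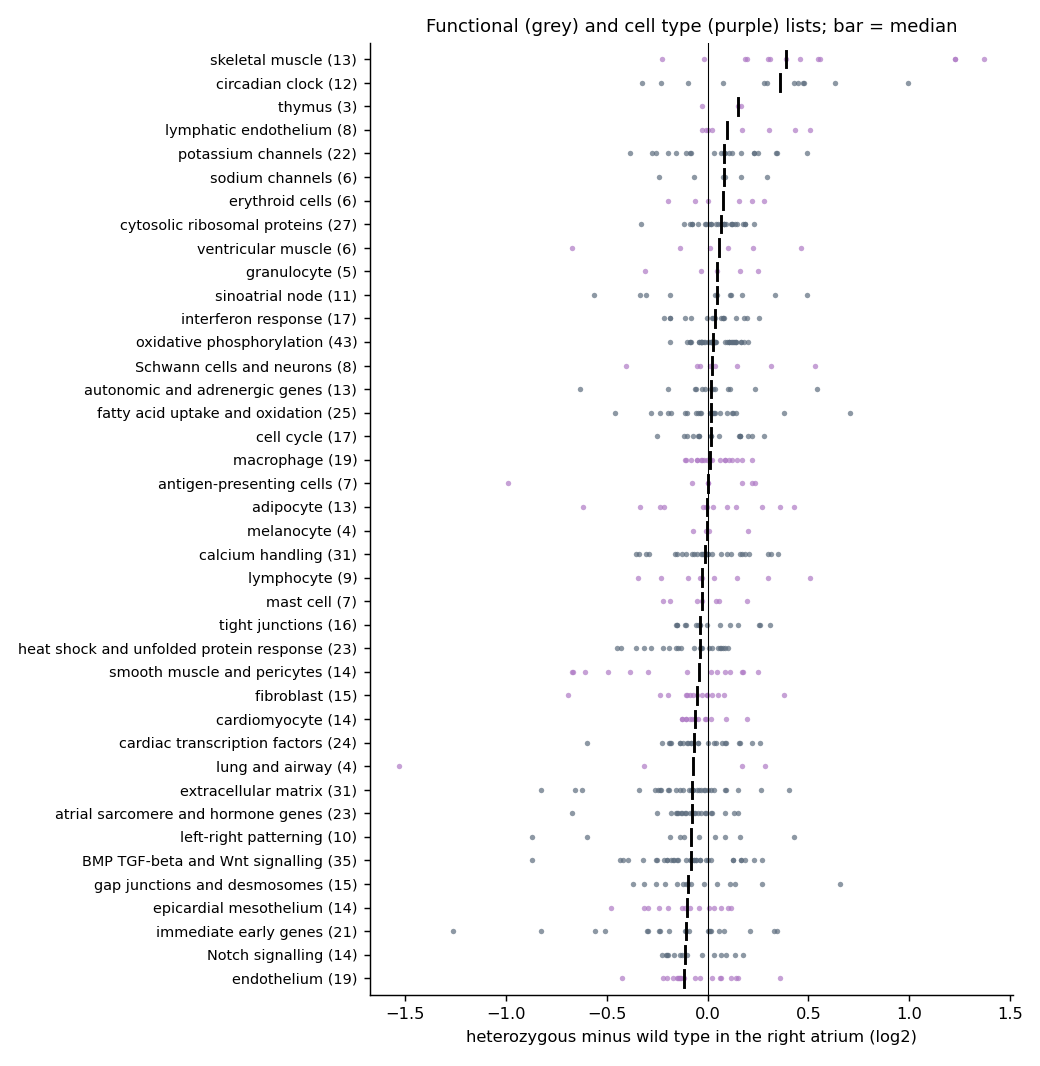
Differences between heterozygous and wild-type RA (log2, horizontal axis) for the tested genes of each functional or cell type list (points, number tested in brackets), ordered by their median (bar). The skeletal muscle and circadian clock lists lie to the right with medians of 0.39 and 0.36, and all other list medians lie between -0.12 and 0.15.

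Genes named in earlier results for a difference between the sides were looked up in this comparison. The lists were chosen partly on the wild-type RA arrays used here, so they are not independent of it. Of 18 genes higher in the left atrium 12 lay above 0, with a median of 0.20 and 0 called. That median was 0.05, 0.10 and 0.12 without heterozygous replicates 1 and 4 and wild-type replicate 3, and 0.34 and 0.32 without replicate 2 of either genotype. Cxcl14, a chemokine, had 142, 49.7, 88.9, 211 and 41.5 in heterozygous RA. Wild-type RA had 32.9, 52.6, 60.8, 34.5 and 30.6, and the groups overlapped, with a difference of 0.91 (0.31 to 1.52, adjusted p = 0.83 in limma).

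Ddit4l, an inhibitor of mTOR signalling, ranged from 35.3 to 122 against 40.4 to 59.6, a difference of 0.40 (-0.06 to 0.86). Of 26 genes higher in the right atrium 13 lay above and 13 below 0, with a median of -0.02. The 13 genes near the threshold between the genotypes of the left atrium had a median of -0.08 in the right atrium. Among them Arpp21 differed by -0.14 in the RA and 1.01 in the LA, and Cidea, a lipid droplet gene, by 0.43 and 1.96. The test of RA against LA called none of these genes.

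The named genes with the largest differences at a signal over 100 varied within groups. Gdpd3, a lysophospholipase D gene, had 50.1, 323, 416, 836 and 18.7 in heterozygous RA. Wild-type RA had 322 on replicate 4 and from 13.6 to 41.1 on the other 4. High and low arrays occurred in both groups, and the difference of 1.65 had an interval from -0.48 to 3.79.

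Trim68, a ubiquitin ligase gene, had 95.7, 79.6, -4.3, -3.4 and -4.2 in heterozygous RA. All 5 wild-type arrays lay between 83.9 and 123. The difference was -1.53 (-2.71 to -0.36). Fgfbp1, which binds fibroblast growth factors, had 13.6, 2.2, 47.4, 113 and -5.0 against 78.8 to 124.4, a difference of -1.46 (-2.55 to -0.36).

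Gin1 was detected on 3 heterozygous arrays, with -4.4 and 6.3 on the others, and on all wild-type arrays, a difference of -1.31. In Trim68 and Gin1 the heterozygous arrays thus split into high and undetected ones. Those of Fgfbp1 were more graded, with 47.4 on replicate 3, below the lowest wild-type signal of 78.8. LA differences of Gdpd3, Trim68, Fgfbp1 and Gin1 were 1.81, -1.58, -2.37 and -1.46, and the adjusted p in the RA was 0.83 for each (limma). Of the named genes 21 differed by over 1 on the log2 scale, 9 higher and 12 lower, and 0 were called.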

How the data were processed

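Total RNA of 20 atrial appendages was labelled as biotinylated cRNA for Illumina bead arrays, per the labels' protocols. The deposited intensities are linear; between 33.7% and 33.9% of an array's values lie below 0, and the arrays' sorted values differ by at most 1.8. The authors had thus subtracted a background and quantile-normalized, with tools not stated in the labels. Deposited detection columns hold a fraction, 1 minus the detection p-value, and were turned around. A second deposited table held identical values.

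The limma package (3.58.1, R version 4.3.3) applied neqc (normexp from detection p-values, offset 16, quantile, log2). The design had assumed uncorrected intensities and was kept; the closing section gives results without this step. The offset understates differences of dim probes. Tested were the 20097 probes that at least 5 arrays detected at p under 0.05. Means of the 4 groups were fitted over the whole series by lmFit and eBayes, so that the spread is shared, with Benjamini-Hochberg adjustment over all tested probes of a contrast. All tests are two-sided. Probes of the atrial and reference genes that the filter left out were tested by exact permutation over the RA arrays. A probe detected on no array of a group gets a bound, not a fold.

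Of 45281 probes 34885 have 1 gene symbol, 18 several and 10378 none in the platform annotation, and 17137 tested probes were named. A gene is given by its brightest probe. The comparison, its 43 gene lists (820 genes, 742 on the array, 597 tested) and the rules were chosen with earlier results of these data known. The rule for named genes took called probes, the 10 smallest p in each direction, a set of atrial and reference genes, of each list the brightest, the 2 largest differences and the 2 smallest p, the genes of earlier results, genes called between RA and LA, and the 5 largest differences in each direction at a signal over 100. The text prints a part of them. Replicate numbers are not said to pair arrays, and sides share mice in an order not given. Arrays are taken as separate mice; their number limits the precision. The RA genotype test was also run on data simulated from the fitted group means and spreads.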

Additional observations from a re-analysis of the deposited data

Results flagged for a closer look

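The number of detected probes and the log2 values of selected probes, most of them described above, were looked at in groups of 5 RA arrays. Of 86 such groups, 7 held an array whose gap to its nearest neighbour exceeded 0.71 of the group's range on that scale, and the deposited signals of these are given. About 5% of groups do so by chance. ILMN_3118071 stood at 835.1 on heterozygous replicate 1 (others 435.1 to 463.9), and H3f3b at 4238.2 on the same array (others 4930.1 to 5154.1). Lrat was low on heterozygous replicate 2, at 26.1 (others 52.1 to 65.3). Bmp10 was low on wild-type replicate 1, at 713.8 (others 2041.7 to 3067.7). Tnni2 was low on wild-type replicate 5, at 89.4 (others 151.9 to 169). Gdpd3 was high on wild-type replicate 4, at 321.8 (others 13.6 to 41.1). Ucp1 was high on heterozygous replicate 1, at 446.7 (others -6.1 to 1.4). By the limma test of RA against LA, the genotype difference departed between the atria by 3.8 for ILMN_3118071 and 2.3 for ILMN_1220244 (log2). Both are fitted values that depend on the offset.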

How the results depend on the processing

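Under all 25 alternatives the same number of probes, 2, was called between the genotypes of the RA, both higher, and ILMN_3118071 and ILMN_1220244 passed in each. Their log2 differences ranged from 2.91 to 3.81 and from 1.36 to 2.65, lowest with an offset of 50, with adjusted p-values up to 0.000195 and 0.000914 in limma. The test of RA against LA called 2 probes under the 23 alternatives that allow it. None of 8280 values of named genes under these settings passed the threshold. Alternatives covered the background step (also omitted, with offsets of 16 and 50), the quantile step, the filter on dim probes, the source of values, the variance model, array weights, covariates for other tissues, the RA arrays alone, the array with Ucp1 and each RA array left out and, for list medians, all probes of a gene averaged. Not all of these are separate checks. The second source of values was identical to the first, and leaving out the array with Ucp1 repeats leaving out heterozygous replicate 1. The quantile step acted on values that were already quantile-normalized. The share of probes with an interval within 2-fold ran from 93.0% to 98.2%, and from 93.0% to 96.5% when 1 array was left out. Without the array with Ucp1, heterozygous replicate 1, the median of ribosomal protein genes was 0.01 in place of 0.07, the 1 of 645 list medians that moved by more than the spread. Probes with an unadjusted p under 0.05, 1087 in the report, numbered 639 on the RA arrays alone, 1639 with array weights, 2377 with no filter, and from 668 to 2346 with 1 array left out. With the replicate number as a block 2 probes were called, on all arrays and on the RA arrays alone. Same-numbered RA arrays of the genotypes correlated in their deviations by 0.31, 0.18, 0.13, -0.11 and 0.25, and 3 of 5 correlated best with their own number. Pairing was taken only where all 5 exceed 0.1, so it was not used, and these values leave it unsettled. The dimmest probes are limited by signal over background.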
